A study of Mus musculus with 25 samples.

Results

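Induced hepatocytes (iHeps) recovered from the colon of mice were set against iHeps kept in culture. The comparison took the 2 arrays of engrafted iHeps and the 3 arrays of cultured iHeps, 5 of the 25 arrays of the series, and every gene with a named probe set, 18193 in all. The study made engineered cells, scored how close they came to native tissues with its CellNet software, and transplanted iHeps into injured gut.

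The cultured iHeps were 3 cell lines labelled as independent, made from C57BL/6J mouse embryonic fibroblasts (E13.5) with retroviruses for Foxa1 and Hnf4a and grown in a medium with insulin, dexamethasone, nicotinamide, hepatocyte growth factor (HGF) and epidermal growth factor (EGF). The engrafted cells are labelled as iHeps too, with no separate account of how they were made. They had spent 12 days in colons of Rag2gammac-/- mice, which lack lymphocytes, after damage with dextran sodium sulfate (DSS), and were then taken up with the crypts by EDTA, freed with 0.25% trypsin and sorted for their green fluorescence (GFP). The labels do not say which iHep line was transplanted, whether it was 1 line, how many animals were pooled, or the sex of the hosts. Colon crypts of 8-week-old Rag2gammac-/- mice with no DSS named (n = 2), harvested with EDTA and trypsin as well, and fetal liver (E14.5) and adult liver (n = 2 each) stood in the same model and are given for context. The sorted engrafted cells and the colon crypts therefore shared a harvest that the labels do not give for the cultured cells, and effects of the host, the medium and the harvest cannot be told apart.

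The lining of the colon is renewed from stem cells at the base of the crypts, which depend on Wnt signals and carry the receptor Lgr5. Their daughters become absorptive colonocytes, which move salt, water and bicarbonate, or secretory cells: goblet cells that release mucin and enteroendocrine cells that release hormones. The homeobox factors Cdx1 and Cdx2 hold the intestinal fate, while Hnf4a and the FOXA factors serve both liver and gut. Hepatocytes, by contrast, secrete albumin, fibrinogen and apolipoproteins and carry out xenobiotic and nitrogen metabolism.

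Promoters of 4 genes that were higher in the engrafted cells are shown. They are those of Agr2, which had the largest rise of the genes ranked below, the colonocyte genes Guca2a and Slc26a3, and the crypt base gene Olfm4. The 4 were picked by hand, and Slc26a3 was named for its promoter after its values were seen. Their matches therefore do not show how common these letters are among the higher genes. Each promoter runs from 250 bases before to 50 bases after the transcript start in RefSeq (GRCm38.p6), 5′ to 3′ on the gene's strand. Agr2 lies at chr12:35992675-35992974, Guca2a at chr4:119637482-119637781, Slc26a3 at chr12:31437969-31438268 and Olfm4 at chr14:80000052-80000351, all 4 on the plus strand. Capitals mark matches, on either strand, to the letters TTTATG of the CDX core, TGTTTAC of forkhead factors, CAAAGTCC of HNF4 and to the HNF1 consensus.
Agr2: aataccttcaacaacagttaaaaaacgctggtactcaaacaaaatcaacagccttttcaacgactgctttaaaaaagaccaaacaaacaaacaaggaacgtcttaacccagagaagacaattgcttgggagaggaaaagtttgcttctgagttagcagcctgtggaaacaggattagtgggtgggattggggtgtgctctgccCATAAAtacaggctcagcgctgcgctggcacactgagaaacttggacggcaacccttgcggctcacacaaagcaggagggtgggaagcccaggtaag
Guca2a: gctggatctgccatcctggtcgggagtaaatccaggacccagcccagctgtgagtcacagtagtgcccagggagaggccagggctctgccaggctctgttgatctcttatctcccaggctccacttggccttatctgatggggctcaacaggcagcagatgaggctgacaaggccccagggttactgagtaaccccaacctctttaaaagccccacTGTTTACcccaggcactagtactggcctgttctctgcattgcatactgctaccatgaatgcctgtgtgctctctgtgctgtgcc
Slc26a3: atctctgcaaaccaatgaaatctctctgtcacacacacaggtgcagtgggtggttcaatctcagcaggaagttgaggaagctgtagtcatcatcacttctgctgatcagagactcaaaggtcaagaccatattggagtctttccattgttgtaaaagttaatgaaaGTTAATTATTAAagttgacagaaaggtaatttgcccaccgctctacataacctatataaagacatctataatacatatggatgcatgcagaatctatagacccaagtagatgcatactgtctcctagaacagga
Olfm4: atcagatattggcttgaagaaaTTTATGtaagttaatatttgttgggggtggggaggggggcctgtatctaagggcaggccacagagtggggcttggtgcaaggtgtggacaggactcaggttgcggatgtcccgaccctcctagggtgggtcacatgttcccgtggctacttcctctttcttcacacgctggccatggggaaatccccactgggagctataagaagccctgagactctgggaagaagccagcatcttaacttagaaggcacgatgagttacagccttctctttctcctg
The CDX letters stood in Agr2 on the minus strand at positions -47 to -42 from the start, and in Olfm4 on the plus strand at -228 to -223. Guca2a held the forkhead letters at -34 to -28 and Slc26a3 the HNF1 consensus at -84 to -73, both on the plus strand. No match overlapped another, and the HNF4 letters were in none of these 4 windows. Of the 32851 promoters in the table, 11.9% held the CDX letters, 3.65% the forkhead letters, 1.42% the HNF4 letters and 0.0609% the HNF1 consensus. A match is a description of the letters and shows no binding.

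The arrays of the 2 groups differed before any gene was compared. All levels are log2 signals, so a difference of 1 is a factor of 2. Of the bacterial poly-A spikes, RNAs added to a sample before labelling, 4 probe sets averaged 4.50 and 4.72 in the engrafted arrays and 9.34, 9.16 and 9.27 in the cultured arrays. All 24 probe sets of the Dap, Lys, Phe and Thr spikes were lower in the engrafted arrays, by 2.12 to 8.65 on the log2 scale, with an adjusted p under 0.05 each (limma), and all 18 hybridisation control probe sets were higher, by 0.85 to 2.83. The 3 probe sets of bacterial Trp were near background in both groups, at 2.99 to 4.54 in the engrafted arrays and at 2.56 to 4.28 in the cultured arrays, and were not lower. Colon and macrophage arrays lacked spike signal too, which left 10 arrays of the series without it (4.47 to 4.72) and 15 with it (9.16 to 11.28). Because no array of either group crossed this line, whatever set the spike signal and engraftment cannot be told apart. The 3′ probe set of 18S ribosomal RNA was at 14.75 and 14.74 in the engrafted arrays and at 12.63, 12.04 and 12.19 in the cultured arrays (2.46 ± 0.25, adjusted p = 5.59e-05, limma). Its middle probe set rose by 2.15 (adjusted p = 0.00102, limma), and its 5′ probe set did not pass (0.83, adjusted p = 0.0552, limma). For the 3′ probe set colon stood at 14.76 and 14.76 and the macrophage arrays at 14.55 to 14.61. All arrays with spike signal stood at 11.39 to 13.03, so this probe set parted the whole series by spike signal. The difference between the 3′ and 5′ probe sets of Gapdh was 1.41 and 1.38 in the engrafted arrays and -0.04, -0.09 and 0.04 in the cultured arrays. The same difference ran the other way for actin, at -0.28 and -0.13 in the engrafted arrays and at 0.36, 0.41 and 0.41 in the cultured arrays, and for the transferrin receptor, at 0.16 and 0.03 in the engrafted arrays and at 1.28, 2.23 and 1.51 in the cultured arrays. Of the tested genes, 16.9% separated the other arrays of the series fully by spike signal, and of the genes that passed the threshold 24.0% did. Where a named gene did so, the text says that it followed the spike line. Outside the comparison, the arrays without spike signal were colon and macrophages, and those with it were livers and iHeps with shRNA. The line therefore also divides tissues, and spike signal and tissue cannot be told apart by it.

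**Figure D1:**
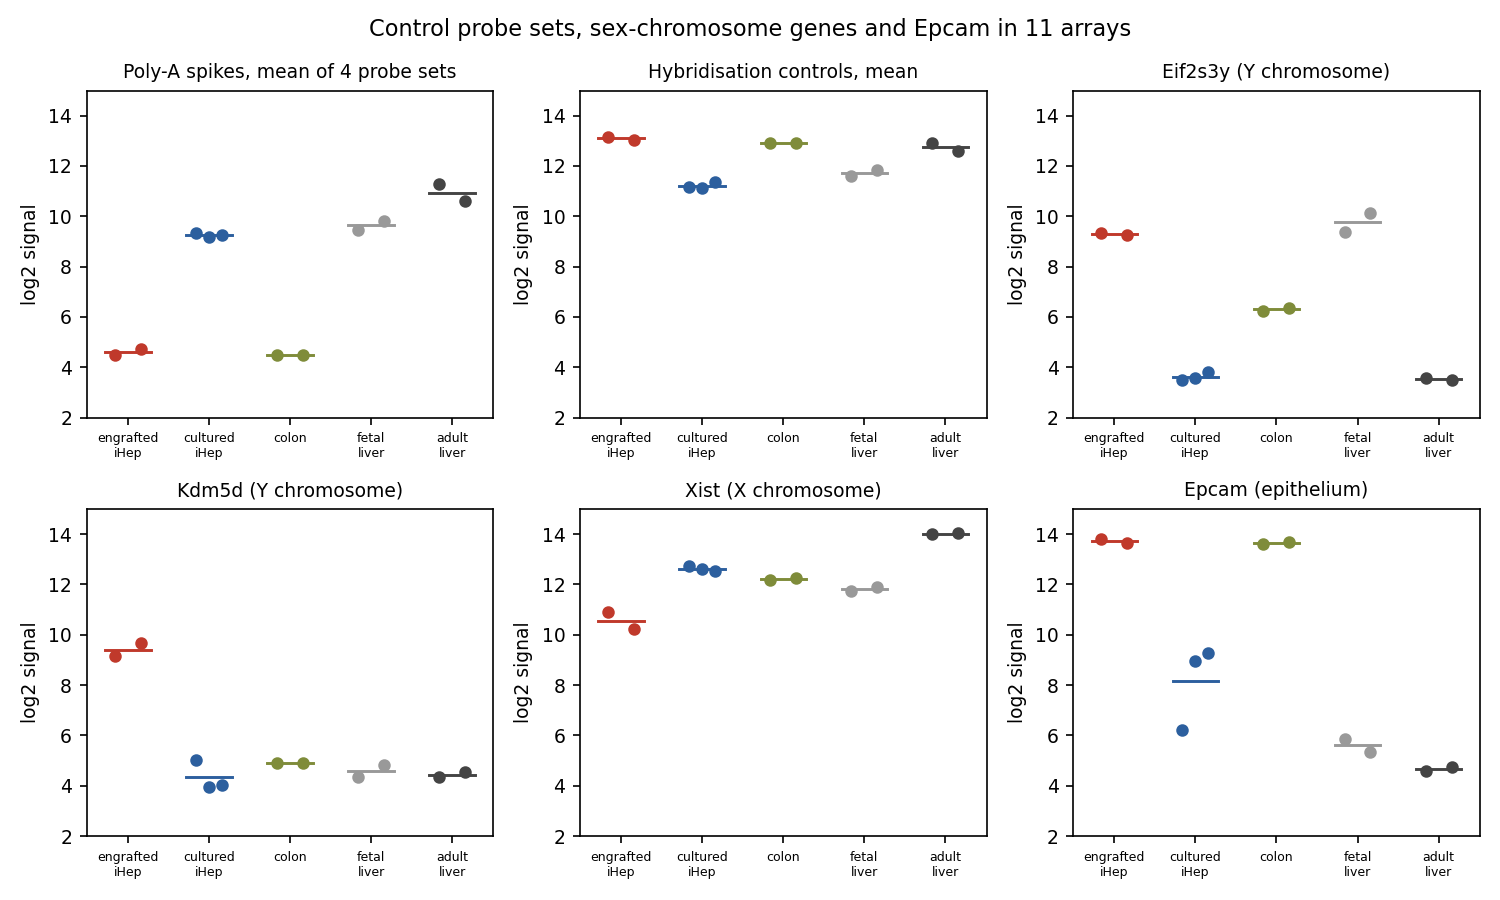
Log2 signal (y axis) of the mean of 4 poly-A spike probe sets, the mean hybridisation control, Eif2s3y, Kdm5d, Xist and Epcam in 11 arrays grouped on the x axis; points are arrays and bars are group means. The engrafted arrays sit with colon for the spikes, at 4.50 and 4.72, and apart from the cultured arrays and colon for Eif2s3y and Kdm5d.

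RNA of the Y chromosome also separated the groups. Eif2s3y, a translation factor gene of the Y chromosome, was at 9.33 and 9.27 in the engrafted arrays and at 3.48, 3.56 and 3.81 in the cultured arrays. Kdm5d, a Y-linked histone demethylase, was at 9.14 and 9.67 in the engrafted arrays and at 5.03, 3.94 and 4.02 in the cultured arrays. Both were higher in the engrafted arrays, Eif2s3y by 5.68 ± 0.24 (log2 fold change ± SE, adjusted p = 3.07e-07, limma) and Kdm5d by 5.07 ± 0.34 (adjusted p = 4.84e-06, limma). Kdm5d followed the spike line narrowly, with colon at 4.90 and 4.90 and fetal liver at 4.33 and 4.82. Another Kdm5d probe set did not follow it, at 3.37 and 3.14 in colon and at 6.77 and 6.68 in fetal liver. Uty, another Y-linked gene, lay near background, at 5.35 and 4.27 in the engrafted arrays and at 3.86, 4.20 and 4.33 in the cultured arrays, and was not tested. Xist, the RNA of the inactive X chromosome, was at 10.89 and 10.24 in the engrafted arrays and at 12.73, 12.60 and 12.52 in the cultured arrays, a change of -2.05 ± 0.22 (adjusted p = 8.38e-05, limma). Both Y-linked genes lay under the 40th percentile in all 3 cultured arrays and well above it in the engrafted arrays, which held Xist RNA as well. Kdm5d was above that percentile in too few arrays to be tested once either engrafted array was left out. Colon lay at 6.25 and 6.36 for Eif2s3y and at 4.90 and 4.90 for Kdm5d, and fetal liver at 9.38 and 10.15 for Eif2s3y. Whether host cells in the sort or another starting line accounts for this was not tested, and every difference below is between these arrays as labelled.

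Of 15262 genes tested, 7321 passed the threshold of an adjusted p under 0.05 (48.0%), 2782 of them higher in the engrafted arrays (18.2%) and 4539 lower (29.7%). When a gene's probe sets were averaged, 525 of the 7080 called genes still tested changed sign, and when probe sets shared between transcripts were left out, 322 of 6524 did. The levels of the 2 groups did not overlap for 64.7% of tested genes. The median log2 fold change of all tested genes was -0.22, and centring each array on its median moved it to -0.33, so list medians below are read against -0.22 and list counts against the 18.2% higher and 29.7% lower of all tested genes. With the spike level as a covariate, which nearly coincides with the groups, 0 genes passed in limma and 1671 had an unadjusted p under 0.05. In that fit 2019 of the 7321 called genes changed sign. Against a minimum change of 1 on the log2 scale, 2104 passed. With 48.0% of genes called, the size of a change says more than the call. Changes of at least 4 on the log2 scale, a factor of 16, were called upward for 242 genes and downward for 123. For 127 of the 242, all 3 cultured arrays lay under the 40th percentile of their array, and for 56 of the 123 both engrafted arrays did, so these folds are limited by the background of the probe set. The spike line was followed by 45 of the 242 and 56 of the 123.

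The 12 largest rises were of genes that colon also had at a high level. Agr2, a disulfide isomerase needed to make mucin, was at 13.11 and 12.81 in the engrafted arrays and at 3.18, 3.74 and 4.43 in the cultured arrays, a rise of 9.18 ± 0.34 (adjusted p = 1.26e-07, limma). Clca3b, a member of the Clca family, was at 11.68 and 11.63 in the engrafted arrays and at 3.29, 3.30 and 3.25 in the cultured arrays and had the smallest adjusted p of all genes (2.07e-08). Mgam, the maltase that digests starch, rose by 8.59 ± 0.35, and Chgb, a granule protein of endocrine cells, by 8.58 ± 0.26. The others were Lypd8, which keeps flagellated bacteria off the colon wall, the goblet cell peptide Spink4, the peptidoglycan-binding Pglyrp1, the chloride channel Cftr, the crypt surface protein Prom1, the mucosal scavenger Dmbt1, Sval1 and Tmem45b, with rises of 7.76 to 8.54. None of the 12 followed the spike line. A gene higher in colon than in liver can follow it only if the macrophage arrays also exceed every liver and shRNA iHep array. In each of the 12 the lowest engrafted array was far above the highest cultured array, but they were chosen as the largest changes without overlap. Colon means for these 12 genes ran from 10.27 for Cftr to 14.36 for Spink4.

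**Figure D2:**
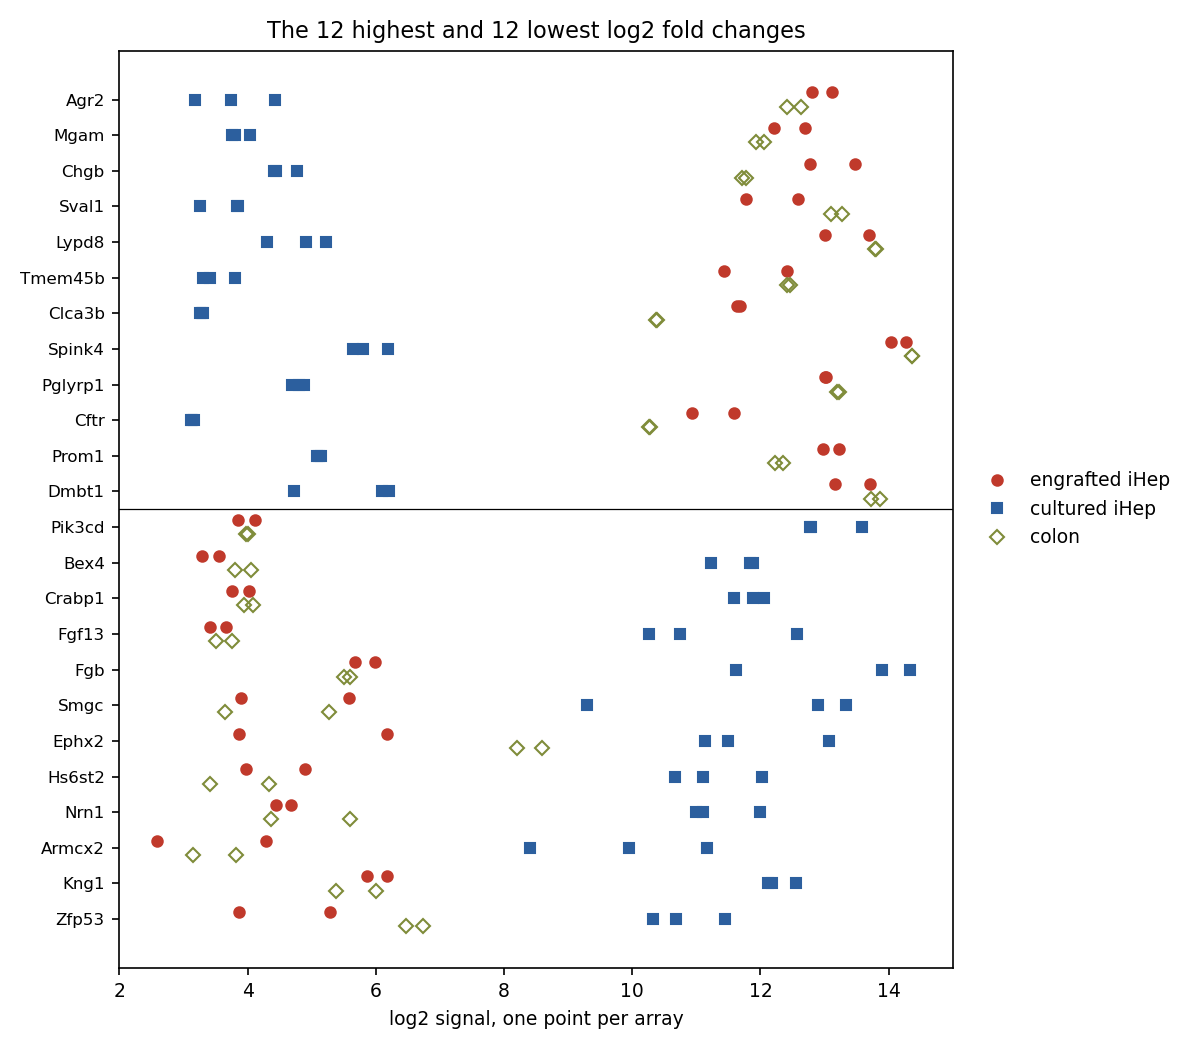
Log2 signal (x axis) of the 12 genes with the largest rise and the 12 with the largest fall (y axis), with 1 point per array for engrafted iHep, cultured iHep and colon. Only called genes whose engrafted and cultured points do not overlap were ranked, with clone-style symbols such as Rik names passed over. The engrafted points of the upper 12 genes lie at 10.94 or above.

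The 12 largest falls included the plasma proteins Fgb and Kng1. Crabp1, a carrier of retinoic acid, was at 3.76 and 4.02 in the engrafted arrays and at 12.06, 11.59 and 11.89 in the cultured arrays, a fall of 7.96 on the log2 scale (SE 0.23, adjusted p = 3.49e-08, limma). Fgf13, an intracellular member of the FGF family, fell by 7.66 and Hs6st2, a heparan sulfate sulfotransferase, by 6.84. The fibrinogen chain Fgb fell by 7.44 and kininogen, Kng1, by 6.27. The falls of Smgc, Ephx2 (an epoxide hydrolase) and Zfp53 were 7.11, 6.89 and 6.24. Pik3cd, a kinase subunit of leukocytes, had the largest fall of the 12, 9.07, but 1 of its 6 probe sets carried it. That probe set was at 4.11 and 3.85 in the engrafted arrays and at 12.79, 12.78 and 13.58 in the cultured arrays. The other Pik3cd probe sets lay between 2.52 and 5.16 in the engrafted arrays and between 3.10 and 5.99 in the cultured arrays. Pik3cd, Bex4, Fgb, Nrn1, Armcx2 and Kng1 followed the spike line, which is 6 of the 12.

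Most tested transcription factors of the intestine were higher in the engrafted arrays. Of 28 regulators, 20 rose and 1 fell, with a median log2 fold change of 2.06. Cdx1 was at 10.01 and 9.56 in the engrafted arrays and at 4.63, 4.66 and 4.40 in the cultured arrays, and its rise was 5.22 ± 0.23 (adjusted p = 3.67e-07, limma). Cdx2, already well above background in culture, was at 11.10 and 11.05 in the engrafted arrays and at 10.33, 8.97 and 9.17 in the cultured arrays, and rose by 1.58 ± 0.39 (adjusted p = 0.00789, limma). The homeobox pair thus stood at unlike levels in culture, with Cdx1 near background and Cdx2 not, and both were high after engraftment. Ehf, an ETS factor of epithelia, rose by 7.60 ± 0.19 and followed the spike line. The nuclear receptor Hnf4g rose by 4.59 ± 0.31 and the forkhead factor Foxa3 by 5.39 ± 0.46. Zbtb7b, better known from T cells, was the 1 regulator that fell, by 1.53 (adjusted p = 0.0221, limma), and its call ended without cultured replicate 3 (adjusted p = 0.0647) or engrafted replicate 2 (-0.56, adjusted p = 0.143). Gata6, an endoderm factor, was at 8.76 and 9.53 in the engrafted arrays and at 9.41, 8.01 and 7.95 in the cultured arrays and did not pass the test.

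Both reprogramming factors were higher in the engrafted arrays, from unlike levels in culture. Foxa1 was at 9.26 and 8.38 in the engrafted arrays and at 4.30, 4.14 and 4.52 in the cultured arrays, although the cultured lines were made with a Foxa1 retrovirus, and it rose by 4.50 ± 0.55 (adjusted p = 1.57e-04, limma). Hnf4a was at 12.18 and 12.09 in the engrafted arrays and at 7.67, 10.78 and 10.48 in the cultured arrays, a rise of 2.49 ± 0.77 (adjusted p = 0.0239, limma). That call ended without engrafted replicate 1 (adjusted p = 0.0783) or replicate 2 (adjusted p = 0.0666), and the rise was 1.50 without cultured replicate 1. The 4 Hnf4a probe sets gave rises of unequal size, and 1 of them stood at 10.74 and 10.76 in the engrafted arrays and at 6.46, 6.18 and 6.48 in the cultured arrays. Which probe sets see the retroviral RNA was not tested.

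**Figure D3:**
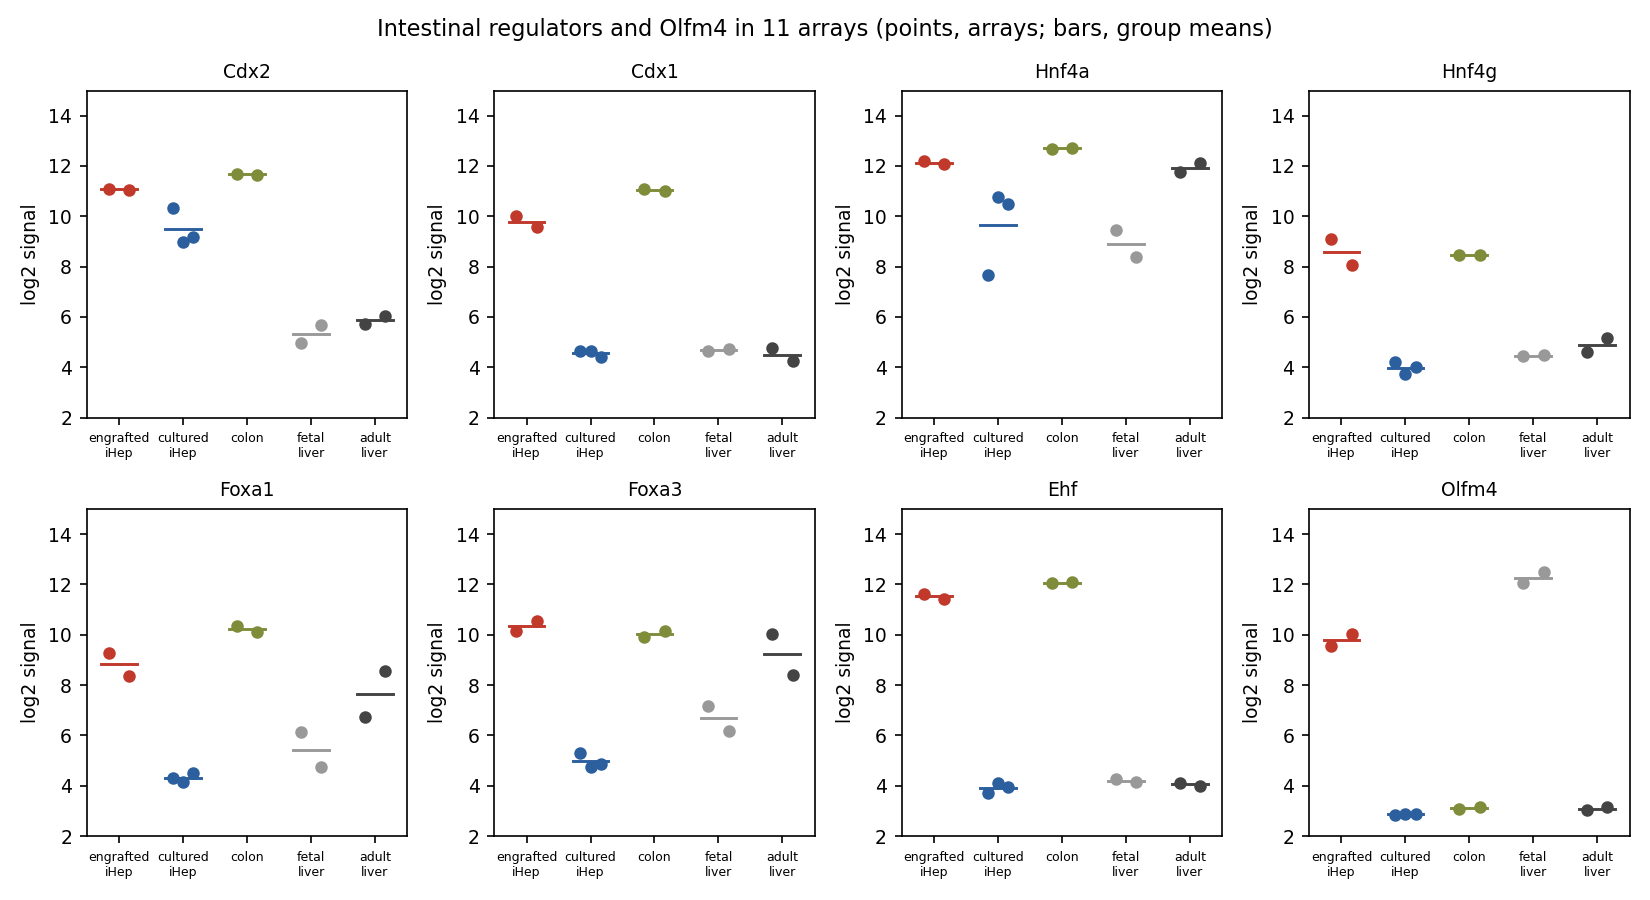
Log2 signal (y axis) of 7 intestinal regulators and Olfm4 in 11 arrays grouped on the x axis; points are arrays and bars are group means. Cdx1, Hnf4g, Foxa1, Foxa3 and Ehf are near background in the cultured arrays and high in the engrafted and colon arrays, and Olfm4 is high in the engrafted and fetal liver arrays and low in colon.

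HOX genes of the posterior body, which mark position along the gut, gave a mixed picture: 8 of 17 rose, 2 fell and the median was 0.77. Hoxb13, a marker of the distal colon, was at 10.75 and 8.66 in the engrafted arrays and at 5.58, 6.27 and 7.34 in the cultured arrays (3.31 ± 0.62, adjusted p = 0.00188, limma). Hoxc10 was at 8.52 and 7.97 in the engrafted arrays and at 4.22, 5.31 and 5.41 in the cultured arrays. Hoxc8 fell by 4.04 on the log2 scale, to 5.94 and 5.06 in the engrafted arrays, against 8.65, 9.96 and 10.01 in the cultured arrays. Without engrafted replicate 1, 4 of the 17 rose. Without cultured replicate 1, 4 fell, and 1 fell without engrafted replicate 2, cultured replicate 2 or cultured replicate 3.

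Of 31 tested genes of absorptive colonocytes, 22 were higher, 2 were lower and 7 did not pass, with a median of 3.80. Car4, a carbonic anhydrase of the luminal membrane, was at 11.67 and 11.58 in the engrafted arrays and at 4.08, 3.99 and 3.79 in the cultured arrays, and rose by 7.67 ± 0.19 (adjusted p = 3.07e-08, limma) while following the spike line. Guca2a, the hormone guanylin, was at 13.31 and 12.89 in the engrafted arrays and at 6.33, 6.00 and 6.16 in the cultured arrays. Slc26a3, the chloride and bicarbonate exchanger, named for its promoter after its values were seen, was at 11.49 and 10.91 in the engrafted arrays and at 4.55, 5.01 and 4.77 in the cultured arrays. The serum amyloid gene Saa1 rose by 7.20 ± 0.27 and Cftr by 8.12 ± 0.21. Krt20, a keratin of mature surface cells, was less even, at 11.56 and 9.25 in the engrafted arrays and at 6.25, 5.83 and 5.54 in the cultured arrays. Scnn1g, a subunit of the epithelial sodium channel, went against the list, with a fall of 4.76 that followed the spike line. The other fall, of the lactate and butyrate transporter Slc16a1, was 0.65, and it lost its call without cultured replicate 1 (adjusted p = 0.0682), cultured replicate 3 (0.0508) or engrafted replicate 2 (0.0811).

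Brush border genes, which build and fill the microvilli, showed 16 rises and 3 falls among 27 tested, with a median of 2.53. The cadherins Cdhr2, Cdh17 and Cdhr5, which hold microvilli or neighbouring cells together, rose by 6.34 ± 0.37, 5.59 ± 0.28 and 4.92 ± 0.28. Myo1a, the motor of the microvillus, was at 11.50 and 11.25 in the engrafted arrays and at 4.88, 5.19 and 5.48 in the cultured arrays. The fatty acid carrier Fabp2 was at 11.93 and 10.92 in the engrafted arrays, and the cultured arrays spread from 5.31 to 8.38. Eps8, a capping protein of the same structure, fell by 1.39.

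Goblet cell genes rose in 15 of 24 tested and fell in 3, with a median of 2.68. Muc2, the gel-forming mucin of the colon, was at 12.41 and 12.92 in the engrafted arrays and at 5.74, 5.79 and 5.69 in the cultured arrays, a rise of 6.92 ± 0.21 (adjusted p = 3.6e-08, limma). Spink4 was at 14.27 and 14.04 in the engrafted arrays and at 6.19, 5.64 and 5.80 in the cultured arrays. Creb3l1, a secretory pathway factor, rose by 5.33 ± 0.29 and followed the spike line. Not all goblet genes were low in culture: the mucus regulator Clca1 was at 12.08 and 13.16 in the engrafted arrays and at 12.56, 10.69 and 10.26 in the cultured arrays and did not pass the test. Sytl2, a vesicle-docking protein, and Gcnt3, a mucin-type glycosyltransferase, fell by 2.91 and 1.61.

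Defence genes of the mucosa were higher for 16 of 22 tested and lower for 0, with a median of 3.58. At an unadjusted p under 0.05 in limma the count lower was also 0, and without cultured replicate 1 it was 1. The lectin Reg4 rose by 7.18 ± 0.23, and Pigr, which carries immunoglobulin A across the epithelium, by 6.52 ± 0.39. Reg3b, a bactericidal lectin, was at 11.77 and 11.83 in the engrafted arrays and at 5.21, 6.04 and 8.57 in the cultured arrays. Lyz1, a lysozyme known from Paneth cells, split the engrafted arrays, at 4.87 in replicate 1 and 12.09 in replicate 2, against 5.23, 4.76 and 5.12 in the cultured arrays. Its probe set also stood at 13.44 to 13.87 in the macrophage arrays and at 13.61 and 13.89 in fetal liver, and the macrophage gene Lyz2 was likewise higher in engrafted replicate 2, at 11.37, than in replicate 1, at 6.11.

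Enteroendocrine and tuft cell genes rose in 10 of 22 tested and fell in 2, with a median of 1.24. Chgb was at 13.48 and 12.77 in the engrafted arrays and at 4.77, 4.41 and 4.45 in the cultured arrays. Neurod1, a factor of endocrine differentiation, rose by 2.94 ± 0.24. The granule protein Chga and the hormone gene Cck differed between the engrafted arrays in opposite directions, with Chga at 11.44 in replicate 1 and 7.01 in replicate 2, and Cck at 6.94 in replicate 1 and 10.25 in replicate 2. The rise of Chga was 3.62 ± 0.95 over both, 1.41 without engrafted replicate 1 and 5.84 without replicate 2, and the rise of Cck was 4.36 over both and 2.71 without replicate 2. Pou2f3, the factor that makes tuft cells, fell by 1.41 and followed the spike line. The 2 falls were 1 without engrafted replicate 2, cultured replicate 2 or cultured replicate 3.

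Crypt base and Wnt target genes rose in 10 of 22 tested and fell in 2, with a median of 0.80. Lgr5 was at 7.78 and 9.06 in the engrafted arrays and at 5.36, 6.03 and 6.41 in the cultured arrays, a rise of 2.49 ± 0.62 (adjusted p = 0.00881, limma) that lost its call without engrafted replicate 2 (1.85, adjusted p = 0.0651). Olfm4, a secreted protein of stem cells in the small intestine, was at 9.56 and 10.05 in the engrafted arrays and at 2.84, 2.88 and 2.88 in the cultured arrays, a rise of 6.94 ± 0.22 (adjusted p = 4.18e-08, limma). The Wnt feedback genes Rnf43 and Axin2 rose by 5.11 ± 0.51 and 2.50 ± 0.30. Prom1 was at 13.22 and 12.97 in the engrafted arrays and at 5.11, 5.08 and 5.15 in the cultured arrays. The 2 falls of the list were 1 without engrafted replicate 1 or any 1 cultured array.

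The engrafted arrays were also set against colon in the same model. Of 15262 genes, 1081 were higher in engrafted iHeps than in colon (7.08%) and 1471 were lower (9.64%). Among the 273 tested genes of the naming rule, 38 were higher and 37 lower, and 10 of them, picked after their colon levels were seen, are given here. Olfm4 was at 3.08 and 3.14 in colon and at 12.06 and 12.48 in fetal liver, and the engrafted arrays exceeded colon by 6.69 ± 0.24. Mmp7, a protease that activates defensins in Paneth cells, was at 11.25 and 11.62 in the engrafted arrays and at 5.64 and 5.73 in colon (5.75 ± 0.23). Lgals2, a galectin, was at 13.23 and 13.36 in the engrafted arrays and at 7.91 and 7.88 in colon (5.40 ± 0.20). Reg3b exceeded colon by 6.72 ± 0.85, Gkn3, a gastrokine of the stomach, by 5.56 ± 0.26, and Hoxc10 by 4.69 ± 0.38. Of the arrays in the model, only the engrafted arrays held Hoxc10 above the percentile that a gene had to exceed to be tested. Hoxc10 was thus tested only because of the group where it was high. Below colon lay Hoxa13, a HOX gene of the hindgut, at 6.75 and 6.21 in the engrafted arrays and at 9.24 and 9.08 in colon (-2.68 ± 0.28), and the brush border peptidase Anpep, at 5.63 and 5.37 in the engrafted arrays and at 8.21 and 7.99 in colon (-2.60 ± 0.27). S100a8, best known from neutrophils, was at 4.69 and 7.77 in the engrafted arrays and at 11.86 and 11.80 in colon (-5.60 ± 0.82). Pck1, the gluconeogenic enzyme, was below colon by -2.24 ± 0.36, a difference that was -0.54 and no longer passed when its probe sets were averaged. All 10 passed an adjusted p under 0.05 (limma) in the model as described, and the labels name no DSS damage for the colon mice, so damage and engraftment cannot be told apart here.

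Cell junctions and keratins of epithelium rose in 27 of 40 tested and fell in 1, with a median of 2.95. Epcam, the surface adhesion protein of epithelial cells, was at 13.81 and 13.65 in the engrafted arrays and at 6.23, 8.96 and 9.27 in the cultured arrays, a rise of 5.58 ± 0.73 (adjusted p = 2.35e-04, limma). The tight junction scaffold Tjp3 rose by 5.51 ± 0.34, the claudin Cldn23 by 5.26 ± 0.46 and the desmosomal cadherin Dsc2 by 4.86 ± 0.41. F11r, a junction adhesion protein, was the 1 that fell, by 1.33. Some of the list was epithelial in culture already: Cldn4, another claudin, was at 10.16 and 10.42 in the engrafted arrays and at 6.17, 8.22 and 10.29 in the cultured arrays and did not pass the test.

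**Figure D4:**
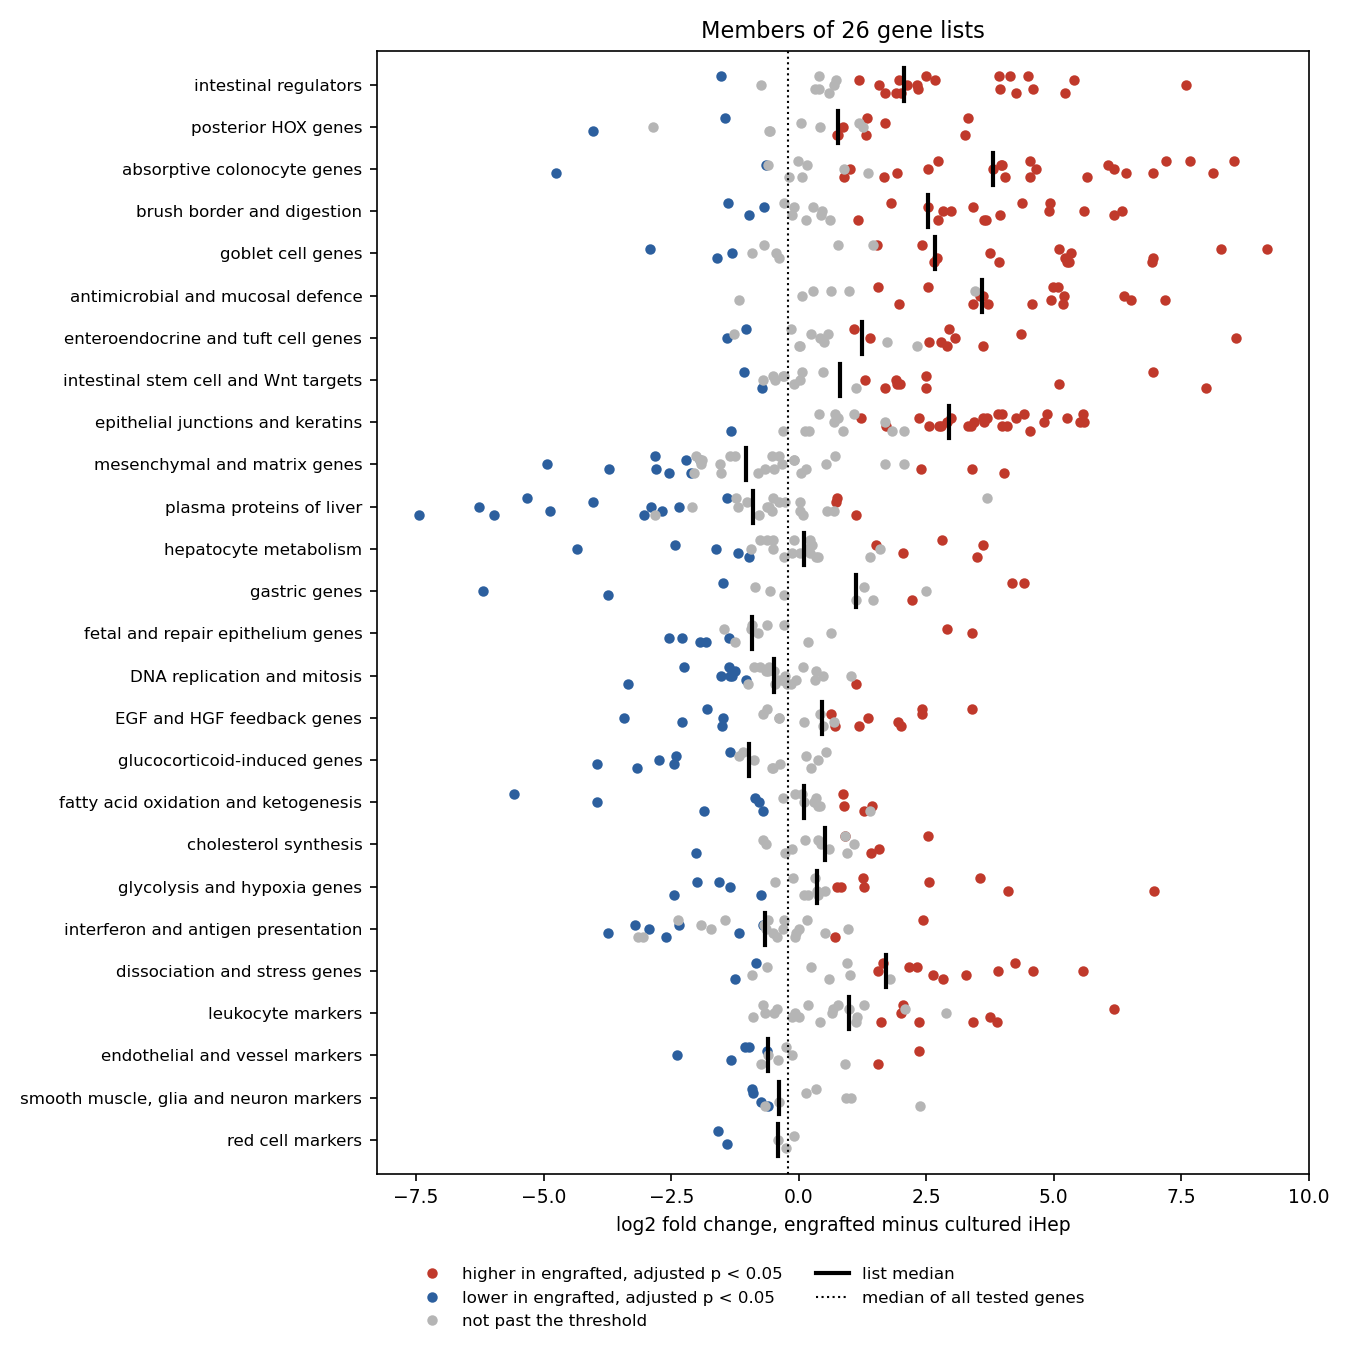
Log2 fold change of engrafted over cultured iHep (x axis) for each tested member of 26 gene lists (y axis), coloured by call, with a bar at the list median and a dotted line at the median of all tested genes, -0.22. The medians of the colonocyte and defence lists lie highest, at 3.80 and 3.58, and the mesenchymal median lies at -1.02.

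Mesenchymal and matrix genes did not move as one. Of 34 tested, 3 rose (8.82%) and 8 fell (23.5%, against 29.7% of all tested genes), with a median of -1.02, and 13 of them followed the spike line. Vim, the intermediate filament of fibroblasts, was at 10.65 and 11.58 in the engrafted arrays and at 13.77, 13.88 and 13.29 in the cultured arrays, a fall of 2.54 (SE 0.49, adjusted p = 0.00224, limma) that left it above its colon level of 7.99 and 7.62. The neural cadherin Cdh2 fell by 4.93 and followed the spike line, and the transition factor Snai2 fell by 2.79. The collagens separated the 2 engrafted arrays: Col1a1 was at 7.82 in replicate 1 and 12.82 in replicate 2, against 5.56, 7.39 and 7.85 in the cultured arrays, and Col3a1 was at 9.44 in replicate 1 and 13.23 in replicate 2, against 5.22, 8.18 and 8.52. Col3a1 followed the spike line. Both collagens passed the test over all arrays, and neither did without engrafted replicate 2 (adjusted p = 0.324 for Col1a1 and 0.125 for Col3a1), while Col1a1 also lost its call without cultured replicate 1 or 2 (adjusted p = 0.0987 and 0.0607). Without engrafted replicate 1, 6 members rose and 7 fell, without engrafted replicate 2, 1 rose and 14 fell, and without cultured replicate 1, 2 rose and 13 fell. Decorin, Dcn, was at 5.53 in engrafted replicate 1 and 10.29 in replicate 2 and did not pass.

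Leukocyte markers were higher in 8 of 27 tested (29.6%, against 18.2% of all tested genes) and lower in 0, with a median of 0.98. At an unadjusted p under 0.05 in limma the lower count was also 0, and without either engrafted array it was 1. Their mean level was 5.96 in engrafted replicate 1 and 7.30 in replicate 2, against 5.35 to 5.48 in the cultured arrays, and 14 and 21 of 28 members stood above the 40th percentile in the engrafted arrays, against 10, 12 and 7 in the cultured arrays. Ctss, a protease of phagocytes that some epithelia also make, was at 11.30 and 10.27 in the engrafted arrays and at 5.02, 4.46 and 4.34 in the cultured arrays. Ptprc, the CD45 antigen that defines leukocytes and named here after its values were seen, was at 2.94 in engrafted replicate 1 and 6.17 in replicate 2, against 3.50, 3.42 and 3.36 in the cultured arrays. Lyz2, a lysozyme of macrophages, was at 6.11 and 11.37 in the engrafted arrays, against 6.16, 5.55 and 5.86 in the cultured arrays, and the phagocyte marker Cd68 at 6.55 and 9.17, against 5.60, 5.66 and 5.28. The call of Cd68 ended without engrafted replicate 2 (adjusted p = 0.238), cultured replicate 2 (0.0547) or cultured replicate 3 (0.0684). Without engrafted replicate 1 the list had 14 rises, and without cultured replicate 2 or 3 it had 5. Signal of leukocytes and matrix was thus uneven between the engrafted arrays, and its part in other results was not tested.

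**Figure D5:**
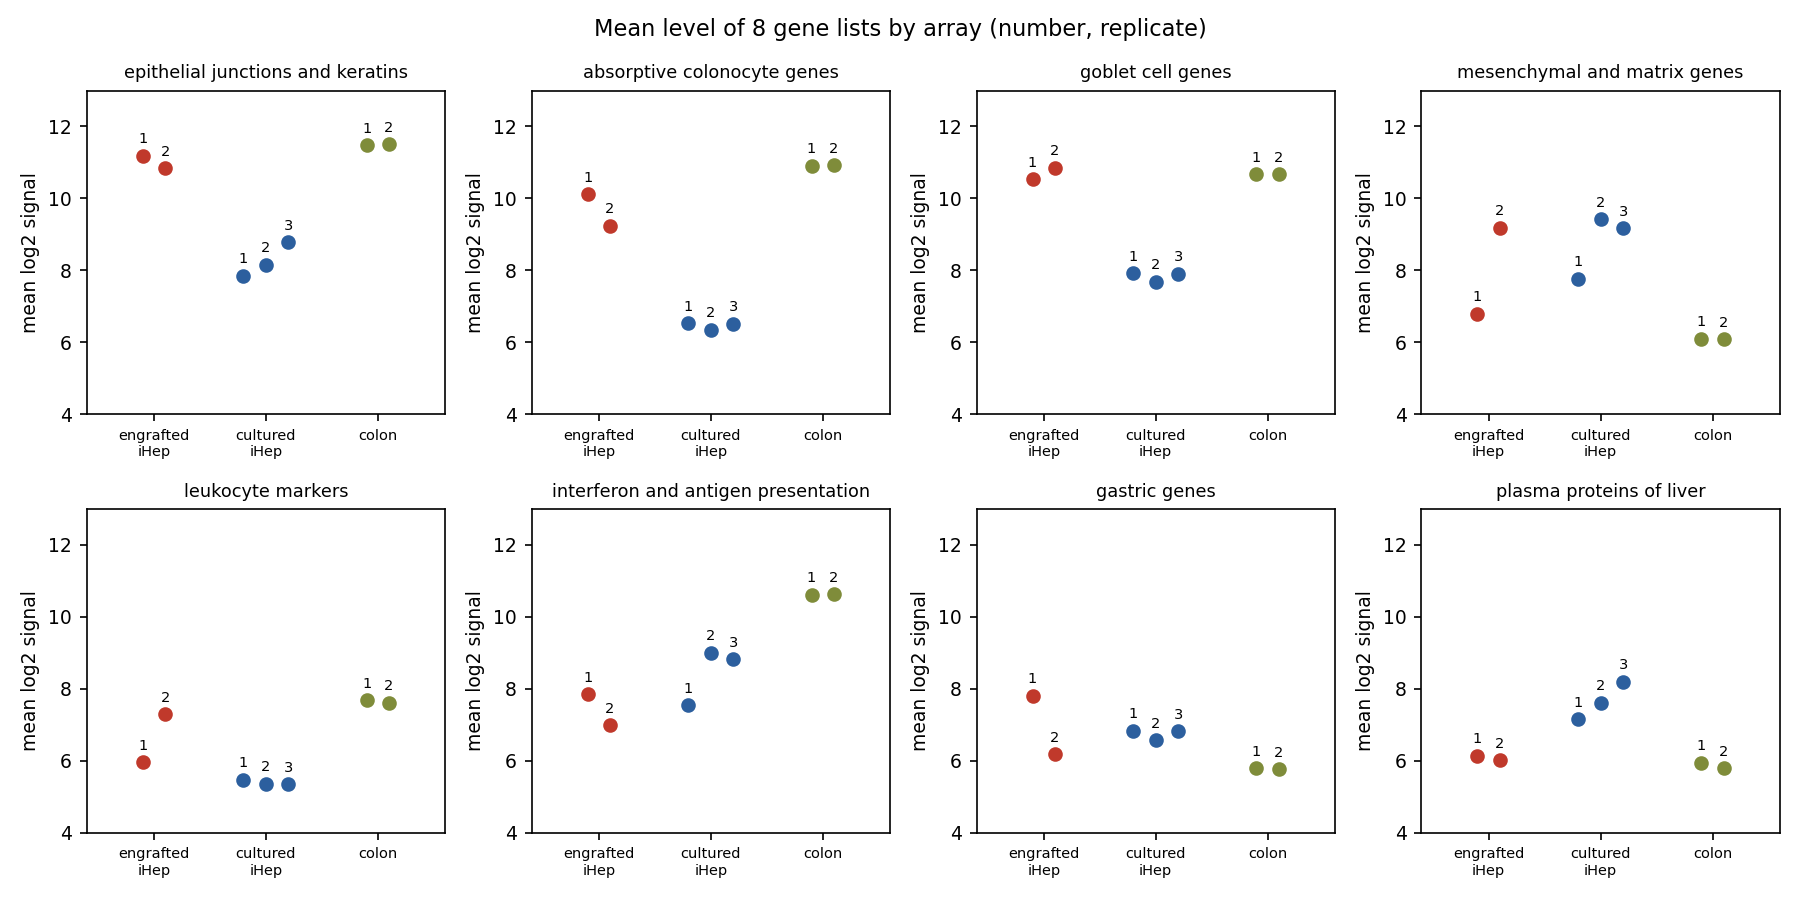
Mean log2 signal (y axis) of the members of 8 gene lists in each engrafted, cultured and colon array (x axis), with the replicate number beside each point. Engrafted replicate 2 stands above replicate 1 for the mesenchymal list, at 9.19 and 6.80, and the leukocyte list, at 7.30 and 5.96, and below it for the gastric list, at 6.18 and 7.81.

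The engrafted arrays were also less alike in general. Their levels correlated at 0.914 over the tested genes, where pairs of cultured arrays, of independent lines, gave 0.952 to 0.979. They differed by more than 2 on the log2 scale for 689 genes, against 51 to 383 genes between pairs of cultured arrays. Engrafted replicate 1 was higher in the stomach gene Gkn1, at 11.32 against 4.73 in replicate 2, and in the mast cell protease Mcpt4, at 11.53 against 5.47. Replicate 2 was higher in the activin subunit Inhba, at 11.77 against 4.96, and in the macrophage receptor Csf1r, at 9.74 against 4.04. Gkn1 and Inhba followed the spike line, and all 4 genes were named after their values were seen. The epithelial junction list stood at 11.18 and 10.84 in the engrafted arrays, closer together than either the leukocyte or the matrix list.

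Endothelial markers rose in 2 of 13 tested (15.4%) and fell in 5 (38.5%, against 29.7% of all tested genes; median -0.61), and without cultured replicate 2 or 3, or engrafted replicate 1, 3 fell. Tek, a receptor of angiopoietins, was 1 of the 2 that rose, by 2.35 ± 0.28, and went against the list, where 10 of the 13 changes were negative. Of smooth muscle, glia and neuron markers 0 of 11 rose and 4 fell (36.4%, against 29.7% of all tested genes), and 3 were higher at an unadjusted p under 0.05 (limma). Of red cell markers 0 of 5 rose, 0 also at an unadjusted p under 0.05 (limma), and 2 fell. The mean level of the endothelial list was 5.69 and 5.83 in the engrafted arrays and 5.94 to 6.10 in the cultured arrays. Without engrafted replicate 1, 3 muscle, glia and neuron markers rose and 2 fell, without engrafted replicate 2, 2 rose and 2 fell, without cultured replicate 2, 1 rose and 0 fell, without cultured replicate 1, 1 fell, and without cultured replicate 3, 2 fell.

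Plasma proteins of the liver were lower about as often as genes in general, and a few had large falls. Of 32 tested, 11 fell (34.4%, against 29.7% of all tested genes) and 3 rose (9.38%, against 18.2%), with a median of -0.90, and 14 of the 32 followed the spike line. Apoa1, an apolipoprotein of plasma, was at 10.48 and 9.61 in the engrafted arrays and at 14.97, 14.90 and 14.89 in the cultured arrays, a fall of 4.88 (SE 0.28, adjusted p = 1.92e-06, limma) that followed the spike line. Fgb was at 5.68 and 5.99 in the engrafted arrays and at 11.62, 13.89 and 14.34 in the cultured arrays. Kininogen, Kng1, was at 5.86 and 6.18 in the engrafted arrays and at 12.55, 12.12 and 12.18 in the cultured arrays. Hemopexin, Hpx, fell by 5.98 and the inter-alpha-trypsin inhibitor chain Itih2 by 5.33, and these 4 genes followed the spike line too, as did Alb. For such genes the line also parts liver and shRNA iHep arrays from colon and macrophage arrays. Alb, albumin, was at 6.26 and 6.24 in the engrafted arrays and at 5.69, 9.90 and 11.59 in the cultured arrays, so that cultured replicate 1 lay below both engrafted arrays, and the gene did not pass (adjusted p = 0.0985, limma). Ttr, the carrier of thyroid hormone, was at 12.06 and 12.50 in the engrafted arrays and at 4.93, 8.84 and 12.00 in the cultured arrays. The 3 rises were of 0.73 to 1.12, and without cultured replicate 1, 0 members rose, and without cultured replicate 2, 1 did.

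Enzymes of hepatocyte metabolism did not share a direction, with 5 of 28 higher and 5 lower (17.9% each, against 18.2% and 29.7% of all tested genes) and a median of 0.10. Pck1, which gut and kidney use as well as liver, was at 8.80 and 7.54 in the engrafted arrays and at 4.76, 4.63 and 4.65 in the cultured arrays. Hpd, of tyrosine breakdown, rose by 2.80 ± 0.31. Cyp27a1, which oxidises sterols to bile acids, fell by 2.42, and by 1.59 without engrafted replicate 2. Without cultured replicate 2 or 3 the number lower was 3.

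Of 13 stomach genes, 3 were higher and 3 lower (23.1% each), shares near the 18.2% and 29.7% of all tested genes. Of the 13, 7 followed the spike line. Gkn3, Gkn2 and Tff1 were among these 7. Gkn3 was at 11.40 and 10.82 in the engrafted arrays and at 6.91, 6.53 and 6.64 in the cultured arrays, and Gkn2, another gastrokine, was at 8.85 and 4.93 in the engrafted arrays and at 12.33, 13.17 and 13.72 in the cultured arrays. Tff1, the trefoil peptide of the stomach surface, was at 11.87 and 7.08 in the engrafted arrays and at 13.14, 12.90 and 13.57 in the cultured arrays, a fall of 3.73 that was 6.13 without engrafted replicate 1 and 1.33 without replicate 2. Without engrafted replicate 2, 6 of the 13 rose, and without engrafted replicate 1, 5 fell. Genes of fetal and repairing epithelium rose in 2 of 16 (12.5%) and fell in 5 (31.2%), shares near the 18.2% and 29.7% of all tested genes, with a median of -0.92. The annexin Anxa3 fell by 2.55. Without engrafted replicate 1, 2 of the 16 fell and 1 rose, without engrafted replicate 2, 8 fell and 1 rose, without cultured replicate 1, 3 fell, and without cultured replicate 2, 3 fell and 1 rose.

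Genes of DNA replication and mitosis stayed far above background in both groups. Of 29 tested, 1 rose (3.45%) and 8 fell (27.6%, against 29.7% of all tested genes), with a median of -0.49, and the mean level was 9.72 and 10.27 in the engrafted arrays, 10.22 to 11.02 in the cultured arrays and 8.12 to 8.16 in colon. Mki67, a marker of cycling cells, was at 12.63 and 12.79 in the engrafted arrays and at 11.30, 11.86 and 11.60 in the cultured arrays (1.13 ± 0.30, adjusted p = 0.0127, limma), and its call ended without engrafted replicate 2 (adjusted p = 0.0509). The cyclin Ccne2 fell by 3.34, the checkpoint kinase Bub1 by 2.25 and the cell cycle kinase Cdk1 by 1.52. Without engrafted replicate 1 or cultured replicate 2, 2 members rose.

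The culture medium held dexamethasone, HGF and EGF, and genes that answer to them were examined. Genes induced by glucocorticoids fell in 6 of 16 (37.5%, against 29.7% of all tested genes) and rose in 0, with a median of -0.98. At an unadjusted p under 0.05 in limma the number that rose was also 0. Fkbp5, a chaperone of the glucocorticoid receptor, was at 8.94 and 9.33 in the engrafted arrays and at 12.37, 12.22 and 12.34 in the cultured arrays, a fall of 3.17 (SE 0.29, adjusted p = 3.13e-05, limma). Tsc22d3, which codes for a glucocorticoid-induced leucine zipper, was at 8.21 and 9.04 in the engrafted arrays and at 11.10, 11.51 and 11.46 in the cultured arrays. The kinase gene Pdk4, which also answers to fasting, fell by 3.96. Of the 6, 3 remained past the threshold without cultured replicate 2, 3 without cultured replicate 3 and 4 without engrafted replicate 1. Feedback genes of EGF and HGF signalling split into 9 rises (40.9%) and 5 falls (22.7%) among 22, with a median of 0.45. The ligand Hbegf and the inhibitor Spry2 rose by 2.42 ± 0.43 and 2.41 ± 0.26, and the phosphatase Dusp6 fell by 1.80. Hmga2, a chromatin protein of fetal and growing cells, fell by 3.42. Without cultured replicate 2 or engrafted replicate 1, 3 of the 22 fell.

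Metabolic genes outside the hepatocyte list were mixed. Of 19 genes of fatty acid oxidation 4 rose (21.1%) and 6 fell (31.6%), near the shares of all tested genes, with Acadm, a mitochondrial dehydrogenase, lower by 1.85 and Hadha, of the trifunctional enzyme, higher by 1.43 ± 0.26. Angptl4, a secreted inhibitor of lipoprotein lipase, was at 5.46 and 8.42 in the engrafted arrays and at 13.09, 12.47 and 12.00 in the cultured arrays and followed the spike line. In cholesterol synthesis 4 of 16 rose, a somewhat higher share than the 18.2% of all tested genes. Of the 16, 1 fell (6.25%, against 29.7% of all tested genes), and without cultured replicate 3, 9 rose. Without cultured replicate 2 the cholesterol count was 1 higher and 2 lower, and without engrafted replicate 2 it was 2 higher. Without cultured replicate 2, 2 of the oxidation genes rose. Dhcr7, the last enzyme of the cholesterol pathway, rose by 2.54 ± 0.42. Among 21 glycolysis and hypoxia genes 8 rose (38.1%, against 18.2% of all tested genes) and 5 fell (23.8%, against 29.7%). Car9, a carbonic anhydrase induced by low oxygen and also made in some gut epithelia, was at 12.32 and 11.80 in the engrafted arrays, at 5.11, 5.11 and 5.06 in the cultured arrays and at 11.20 and 11.22 in colon. Bnip3, a mitochondrial target of the same pathway, went the other way and fell by 2.00.

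Interferon and antigen presentation genes fell in 7 of 28, a lower share than the 29.7% of all tested genes, and rose in 2 (7.14%), with a median of -0.66, and 10 of the 28 followed the spike line. Oas2, an antiviral enzyme, was at 6.94 and 5.91 in the engrafted arrays and at 7.80, 10.28 and 10.80 in the cultured arrays, with colon at 10.90 and 10.81. Ifit2, an antiviral protein, fell by 2.93, and by 1.59 without engrafted replicate 2. The interferon-induced protease Usp18 split both groups, at 8.72 and 3.88 in the engrafted arrays and at 6.84, 11.09 and 10.43 in the cultured arrays, and did not pass. The number lower was 14 without cultured replicate 1, 10 without engrafted replicate 1 and 5 without engrafted replicate 2. The number higher was 1 without cultured replicate 2.

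Early response and heat shock genes, which are known to rise within minutes when tissue is dissociated, were higher in 11 of 20 and lower in 2, with a median of 1.72. Fosb, a subunit of the AP-1 factor, was at 10.78 and 12.01 in the engrafted arrays, at 6.66, 4.53 and 6.31 in the cultured arrays and at 12.13 and 12.25 in colon. Atf3, a stress factor, rose by 4.60 ± 0.27 and Jun, another AP-1 subunit, by 4.24 ± 0.61. The heat shock protein Hspa1a was at 11.35 and 11.30 in the engrafted arrays and at 7.06, 7.58 and 7.61 in the cultured arrays, and did not follow the spike line. Fosb, Atf3 and Jun did, as did 10 of the 20 in all, and the harvest, whatever set the spike signal and engraftment cannot be told apart for these genes. The 2 falls were 1 without engrafted replicate 1, cultured replicate 1 or cultured replicate 3.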

How the data were processed

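RNA of 25 samples was measured on Affymetrix mouse genome arrays after Nugen amplification of 100 ng, per the labels' protocols. The authors deposited log2 signals per probe set, made with RMA per the submitters' processing notes; the RMA version is not given in the sources used here. RMA corrects background and equalises the arrays' distributions together, so spreads are compressed near background.

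From these values each gene was represented by the probe set whose mean over the 25 arrays was highest. Genes above their array's 40th percentile in at least 2 of 11 arrays were tested with limma 3.58.1 in R 4.3.3, in 1 model of engrafted iHeps, cultured iHeps, colon, fetal liver and adult liver (6 residual degrees of freedom, prior 3.57), with Benjamini-Hochberg adjustment over 15262 genes and a threshold of 0.05. The procedure was tested on simulated data. The number of arrays limits precision, and a fold against a group below the 40th percentile is limited by background. The labels call the cultured lines independent and say nothing of the engrafted arrays' animals. The p-values therefore measure a spread between arrays, pooled over the 11 arrays of the model. The engrafted pair was the least alike (r = 0.926 over all probe sets, against 0.967 or more within the other groups of the model), so its own spread can exceed the pooled one. In bulk RNA, fewer cells of a type and less RNA per cell cannot be told apart.

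Members and gene lists were chosen with earlier results of these data known, so lists are described by counts and medians only. Named genes were the 12 largest changes each way among called genes whose groups do not overlap, up to 5 called each way and up to 3 not called per list, the 6 smallest adjusted p-values, and fixed markers including Cdx2, Hnf4a, Foxa1, Alb, Lgr5 and Muc2. Clone-style symbols, such as those with Rik or with Gm and a number, were passed over among the largest changes and smallest p-values. The text gives some of the named genes. The test against colon and the exclusion of genes that follow the spike line were chosen after seeing the data. A gene follows the spike line where its levels in the arrays outside the comparison separate fully by spike signal. Replicate numbers 1 and 2 occur in both groups, and deviations from group means correlated at 0.03 for number 1 and 0.10 for number 2. With 2 engrafted arrays, the deviations of one mirror those of the other, so these correlations cannot show whether arrays were paired. The numbers were not taken as pairs. Promoters came from RefSeq. Plots came from matplotlib 3.10.9 (Python 3.11.15).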

Additional observations from a re-analysis of the deposited data

How the results depend on the processing

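The count of called genes was within 1.5 times of 7321 under the other filters, probe set rules, models and scalings tried, with 2 exceptions. Counts alone hide turned signs: averaging a gene's probe sets turned 525 of the 7080 calls still tested, leaving out shared probe sets turned 322 of 6524, and using the scramble shRNA iHeps in place of the cultured lines turned 5 of 7321. A minimum log2 change of 1 left 2104 genes, 913 higher and 1191 lower. The poly-A spike signal as a covariate left 0 genes, 0 higher and 0 lower, with 1671 at an unadjusted p under 0.05 (limma). It turned the sign of 2019 of the 7321 calls, the most of any setting. Leaving out each replicate in turn gave 6159 to 7233 called genes, 2369 to 2714 higher and 3790 to 4574 lower. Leaving out the genes that follow the spike line, chosen after seeing the data, gave 5416, 1902 higher and 3514 lower. A fit of only the 5 arrays of the comparison, with 3 residual degrees of freedom, gave 5827 genes, 2204 higher and 3623 lower. It kept 5739 of the 7049 calls still tested, and 8 called genes of the text lost their call in it. Averaging probe sets ended the call for 5 results of genes in the text, those against colon included. A replicate block on the shared numbers gave 6013 genes, 2290 higher and 3723 lower, and 5892 of the 7321 were among them; the numbers are not taken to pair the arrays. The fit within a spike class could not be run, since no class holds both groups.

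Of the called genes named in the text, the sign turned with the spike covariate, short of the threshold, for Anxa3 (8.90), Axin2 (-0.22), Ccne2 (3.49), Cdk1 (2.93), Chga (-2.53), Dhcr7 (-1.46), Dsc2 (-0.62), F11r (1.07), Fabp2 (-3.14), Fkbp5 (3.08), Foxa1 (-8.53), Gcnt3 (5.95), Hnf4a (-5.71), Hoxa13 (-0.32), Jun (-8.59), Krt20 (-6.02), Lgr5 (-4.51), Slc16a1 (1.15), Sytl2 (2.29) and Vim (7.43), all as log2 fold changes. The covariate differs little within a group, so its effect and that of the comparison cannot be told apart in this fit. Among genes not called over all arrays, the sign turned and passed the threshold for Csf1r (-2.19, adjusted p = 0.00286, limma) and Inhba (-3.22, adjusted p = 0.00129, limma) without engrafted replicate 2, and for Gkn1 (-2.17, adjusted p = 0.0204, limma) without engrafted replicate 1. Without the other engrafted array these log2 fold changes were 3.51 for Csf1r, 3.59 for Inhba and 4.41 for Gkn1. The causes were not tested. Genes near background have folds limited by their probe sets, and 5 arrays limit the rest.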
